A study of Homo sapiens with 26 samples.

Results

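Transcripts with a very short coding sequence (CDS), of at most 100 codons with the stop codon counted, were examined in ribosome profiling (ribo-seq) and mRNA-seq data from Huh7 cells, a human hepatoma line. They were chosen by the largest codon number listed for each transcript, without use of any read count, and numbered 808 of the 12325 transcripts measured, or 6.56%. Their CDSs ran from 1 to 100 codons with a median of 73, against a median of 388 over all transcripts. At the cut, 20 transcripts had 100 codons, led by LAMTOR4, HMGN3 and TMEM14A, and 16 transcripts that were 1 codon longer, led by APOA2, HMGN1 and VAMP3, were left out.

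The cells had been given PF-06446846, a small molecule studied for selective stalling of translation, or the vehicle DMSO at 0.5%. The first of 2 studies held ribo-seq libraries with 1.5 μM compound, 0.3 μM compound or vehicle after 10 min and after 60 min, with 3 biological replicates in each of the 6 groups. The second study held ribo-seq and mRNA-seq of the same samples with 1.5 μM compound or vehicle after 60 min, with 2 biological replicates, numbered 4 and 5. All 26 libraries came from 1 unmodified cell line, so that no tissue or donor differed between groups.

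A translating ribosome covers several codons at once, so that on a very short CDS the regions of starting and stopping make up much of the path. A ribosome pauses while the stop codon is decoded and the chain is released, and this pause leaves a peak of footprints at the 3′ end of a CDS. The proteins made from very short CDSs include several core subunits of the cytosolic ribosome, many subunits of the respiratory chain and the ATP synthase, subunits of protein translocation channels, thymosins, metallothioneins and apolipoproteins.

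The ends of some of these CDSs are shown because the codon before the stop held a large and varying part of their footprints, as described with the read profiles. Each line holds the last 30 bases of the CDS, 5′ to 3′, in the GENCODE version 44 transcript (build GRCh38), with the codon before the stop in capitals. TOMM5 (a small subunit of the import channel of the outer mitochondrial membrane, chr9:37588898-37588927, minus strand, exon 2 of 2), TMSB4X (thymosin beta 4, which binds actin monomers, chrX:12976782-12976811, plus strand, exon 3 of 3) and TMA7 (a small protein found with ribosomes, chr3:48443853-48443882, plus strand, exon 4 of 4) were among the 7 small proteins with the largest part of their footprints on that codon. TMSB10 (thymosin beta 10, chr2:84906394-84906423, plus strand, exon 3 of 3) and RPS28 (a protein of the small ribosomal subunit, chr19:8322046-8322075, plus strand, exon 3 of 4) are shown because they came up in the comparisons with the compound. RPL41 (chr12:56117495-56117524, plus strand, exon 4 of 4) is shown as the shortest CDS of a named small protein among the 5 shortest with at least 50 reads on average.
TOMM5: tttatcttaaagaaattggacagcATAtga
TMSB4X: gaacaggagaagcaagcaggcgaaTCGtaa
TMA7: ggtggaattaagaaatctggcaaaAAGtaa
TMSB10: gagcaggagaagcggagtgaaattTCCtaa
RPS28: tcagagcgagaagcccggaggttgCGCtga
RPL41: agaagaaagatgaggcagaggtccAAGtaa

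Library depth was 6414227 to 22224137 CDS reads in ribo-seq and 15227654 to 22036358 in mRNA-seq. The hepatocyte markers listed were all read, with AFP at 11120 reads per 1000000 CDS reads (RPM) and APOB at 5693 RPM over the vehicle libraries, and ALB was not listed. Of the markers of blood, fibroblasts and endothelium, only DCN (0.034 RPM, a form of 89 codons) and PECAM1 (17.2 RPM) were listed.

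The 808 transcripts were a mixed set. By GENCODE, 241 encoded small proteins, here genes whose canonical protein also had a CDS of at most 100 codons, and 199 of these CDSs had exactly the canonical length. Another 212 were short forms of a longer protein, 232 had a CDS with no annotated start or stop, 24 had no CDS in the annotation and 99 were not in it. Of the 453 complete CDSs, 433 had the same length as in the annotation. Only 338 of the 808 had at least 50 reads on average over the 22 ribo-seq libraries, and 151 had under 1.

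Small proteins held more of the footprints than any other kind. With vehicle they held 48.4% of the footprints on very short CDSs, against 16.7% for short forms, 4.30% for incomplete CDSs, 2.36% for transcripts without an annotated CDS and 28.2% for those not in the annotation. Of the 11304 RPM of this last kind, 4523 and 4521 RPM lay on ENST00000536684 and ENST00000540040, described below. The median level of a small protein was 0.305 RPM per codon, against 0.0309 for a short form and 0.00536 for an incomplete CDS. Over all 808 the median was 0.0322 RPM per codon, against 0.0457 over all transcripts.

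Very short CDSs took 4.01% ± 0.703 (SD, n = 8) of the CDS reads with vehicle, and 3.28% to 5.17% over all ribo-seq libraries. Most of this spread lay in ENST00000536684 and ENST00000540040, a pair of unnamed transcripts of 25 codons, each with 10161 to 125035 reads in a ribo-seq library. Their footprint counts were nearly equal, such as 10164 and 10161 in vehicle replicate 1 after 60 min, so that the same reads may count in both. In every ribo-seq library 97.0% to 99.9% of their footprints lay on codons 15 to 17, with the peak on codon 16, whereas the mRNA-seq libraries had 73.2% to 86.0% of their reads on codons 1 to 14. Without this pair, which was left out after the values were seen, the share was 2.77% to 3.40% in ribo-seq and 3.34% to 3.61% in mRNA-seq. Small proteins alone took 1.71% to 2.13% of the ribo-seq reads and 1.67% to 1.85% of the mRNA-seq reads. The ranges of the compound and vehicle groups overlapped at both times for each of these shares.

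Several very short CDSs could not be told apart by their reads. Among the 338 with at least 50 reads, 8 pairs had identical counts in every library, 16 transcripts in all, including RPL41 and the 26-codon ENST00000623936. All equally good sites of a read had been reported, reads with up to 5 of them had been kept, and the counts are whole numbers, so that the levels of such transcripts are uncertain.

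Levels by function class were led by the ribosome. The class lists hold every kind of transcript, so that of the 20 cytosolic ribosomal transcripts 10 were small proteins, 8 short forms and 2 incomplete. These 20 had a summed vehicle level of 10386 ± 576 RPM (SD, n = 8 libraries) and a median of 7.01 RPM per codon. RPS21 (1141 ± 236 RPM, 13.6 per codon), RPL37A (1001 ± 67.7 RPM, 14.5 per codon) and RPS29 (919 ± 168 RPM, 16.1 per codon) had the most reads. Per codon RPL41, the shortest of them at 26 codons, was higher still, at 19.03 RPM per codon.

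The 25 subunits of the respiratory chain and the ATP synthase came next in reads, at 3102 ± 300 RPM in all and a median of 1.30 RPM per codon. NDUFA4, a subunit found with cytochrome c oxidase, had 564 ± 63.15 RPM, and ATP5MF and ATP5ME, membrane subunits of the ATP synthase, had 326 ± 26.2 and 207 ± 42.5 RPM. The 31 proteins of mitochondrial import and assembly were lower per codon, with a median of 0.218, led by ROMO1, HIGD1A and TOMM5 (188, 171 and 159 RPM). The 6 mitochondrial ribosomal proteins, led by MRPS21, MRPL51 and MRPL52, had a median of 0.688 RPM per codon.

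Proteins of RNA processing and transcription (18; 1964 ± 143 RPM) were led by the spliceosome subunits SNRPD2 (a short form of 55 codons) and SNRPG and by SRP9 of the signal recognition particle. In the ER and secretory class (21; 1264 ± 115 RPM), SEC61G and SEC61B, subunits of the translocation channel, had 328 ± 43.1 and 156 ± 24.2 RPM, and TMEM258, a subunit of oligosaccharyltransferase, had 251 ± 29.6 RPM. In the class of actin, microtubule and dynein proteins, TMSB10 had 440 ± 181 RPM, a spread wider than those of DYNLL1 (259 ± 50.1) and TMSB4X (191 ± 47.7). In the secreted class (12; 1022 ± 106 RPM), a form of APOC2, a cofactor of lipoprotein lipase, had 362 ± 53.1 RPM, the chemokine CCL20 243 ± 42.9 and the trypsin inhibitor SPINK1 177 ± 33.9.

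**Figure D1:**
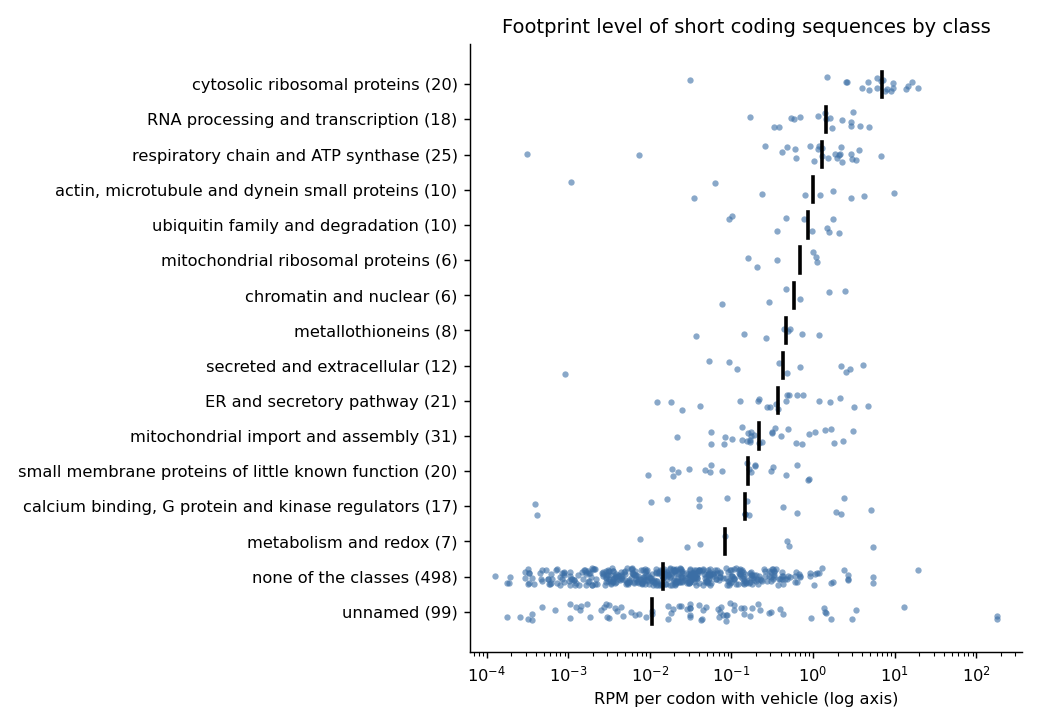
Vehicle footprints per codon (RPM per codon, log axis, mean of 8 vehicle ribo-seq libraries) of each very short CDS with at least 1 vehicle read, by function class, with the number of members in parentheses and the class median as a black line. Cytosolic ribosomal proteins have the highest class median, 7.01, and the pair of 25-codon transcripts stands alone at 181 among the unnamed ones.

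The remaining classes summed to less than the ribosomal and respiratory classes. The calcium binding, G protein and kinase regulators (17; 1166 ± 203 RPM) were led by S100A10 at 507 ± 115 RPM, with CKS1B and GNG5 next, and the ubiquitin family (10; 716 ± 75.96 RPM) by UBL5, SUMO2 and NEDD8 (152, 127 and 122 RPM). DBI, which binds acyl-CoA, had 482 ± 106 of the 570 RPM of the metabolic class, where BOLA2B and ATOX1 followed at 39.4 and 35.2 RPM. HMGN2, BANF1 and HMGN3 led the 6 chromatin proteins (488 ± 114 RPM), and LAMTOR4, LAMTOR5 and SMIM26 the class listed as small membrane proteins (20; 396 ± 36.2 RPM), in which LAMTOR4 and LAMTOR5 are subunits of the Ragulator complex at the lysosome and not membrane-spanning. The 8 metallothioneins, which bind zinc and copper, summed to 229 ± 67.0 RPM, led by MT1X at 72.3 ± 23.1, MT1G at 46.7 ± 13.8 and MT1F at 32.3 ± 8.49 RPM.

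The footprint profiles of small proteins had a peak on the codon before the stop. This was measured over the 123 small proteins with at least 30 codons, an annotated stop and at least 100 reads in every library, as the mean share of a transcript's reads on that codon. With vehicle after 10 min the share was 10.8%, 14.3% and 12.3% in the 3 replicates. In mRNA-seq the same codon held 1.06% to 1.33%. CDSs over 200 codons (4766 transcripts) had a mean of 2.38% with vehicle after 10 min and those over 100 and up to 200 codons (753) had 7.01%, where vehicle mRNA-seq had 0.205% to 0.211% and 0.657% to 0.680%. The share of this codon was thus larger on shorter CDSs in both assays. In the 6 transcripts counted whose CDS has no annotated stop, that codon held 0 reads in every library, mRNA-seq included. Such a transcript ends with its CDS, so that a read placed there would reach past its end. This 0 therefore tells nothing of a peak at the stop.

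Small proteins differed widely among themselves at this codon. Averaged over the vehicle libraries, the share ran from 0 to 45.98% with a median of 9.87% and quartiles of 5.30% and 17.5%. It was largest in TOMM5 (45.98%), TMSB4X (42.0%), COPS9 (35.0%), SEC61G (30.8%), ATP6V0E1 (29.7%), CYSTM1 (29.01%) and TMA7 (27.2%), named after the values were seen. In mRNA-seq TOMM5 and TMSB4X had 2.02% and 2.42% there. Of the sequences shown, RPS28 had 18.3% ± 3.07 (SD, n = 8), TMSB10 16.1% ± 8.61 and RPL41 8.26% ± 2.31 of their vehicle footprints on the codon in capitals.

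The stop codons of the 123 were TGA in 67, TAA in 32 and TAG in 24. The median share on the codon before was 10.6% for TGA (quartiles 6.41% and 18.5%), 6.73% for TAA (3.80% and 14.6%) and 10.9% for TAG (5.51% and 14.3%). The quartile ranges of all 3 overlapped.

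With 1.5 μM compound after 10 min the codon before the stop held less. Its mean share over the 123 small proteins was 6.25%, 9.31% and 10.8% in the compound libraries, each below each of the vehicle libraries, though compound replicate 3 (10.75%) lay close to vehicle replicate 1 (10.84%). With 0.3 μM it was 10.6%, 12.6% and 11.7%, within the vehicle range but for the lowest. After 60 min the shares were 8.78%, 8.84% and 10.3% with 1.5 μM, 9.23%, 10.5% and 9.82% with 0.3 μM and 12.8%, 9.64% and 10.7% with vehicle. These groups overlapped, though within each of the 3 same-numbered pairs the share was lower with 1.5 μM than with vehicle. The second study had 9.84% and 10.9% with compound and 11.6% and 11.1% with vehicle, both compound libraries below both vehicle libraries.

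**Figure D2:**
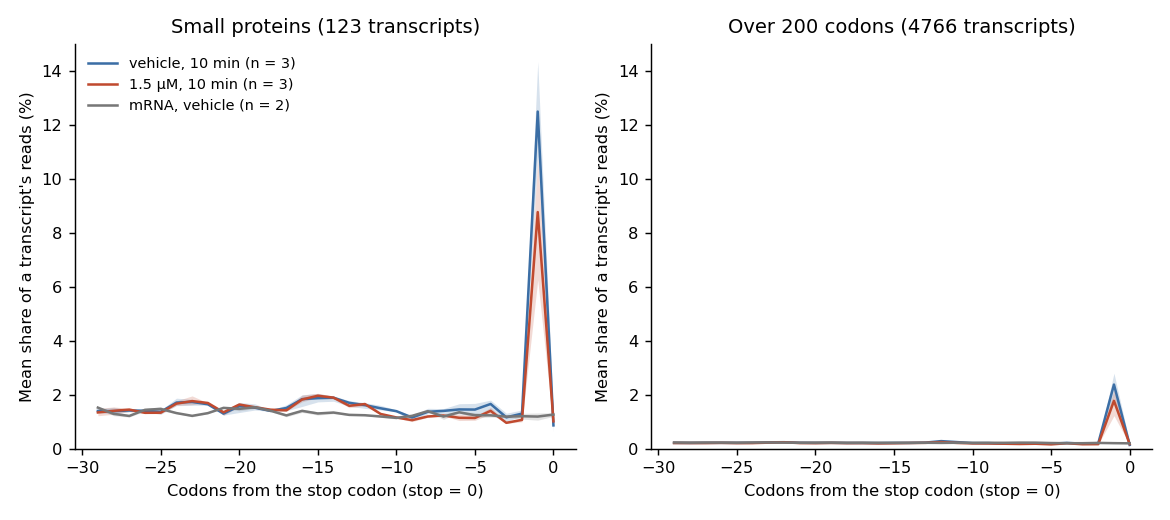
Mean share of a transcript's reads (%) at each of the last 30 codons, counted from the stop codon at 0, for the 123 small proteins and for the 4766 CDSs over 200 codons. Lines are group means and bands the lowest to highest library, for vehicle and 1.5 μM compound after 10 min (3 ribo-seq libraries each) and vehicle mRNA-seq (2 libraries). The peak lies 1 codon before the stop, and is lower with compound in the small proteins.

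Per transcript, 58 of the 123 small proteins (47.2%) had a lower share on the codon before the stop in all 3 libraries with 1.5 μM than in any vehicle library after 10 min, where 27.5% of all 5685 transcripts measured in this way did. In the other direction there were 4, where 1.92% of all transcripts did. After 60 min 5 were lower (4.07%, against 6.44% of all) and 1 was higher (1.13% of all). The mean share over the small proteins was 8.77% with compound after 10 min and 12.5% with vehicle. CDSs over 100 and up to 200 codons had 4.87% against 7.01%, and those over 200 codons 1.78% against 2.38%, both with overlapping libraries. The direction was thus not particular to very short CDSs. As this codon held a smaller share in longer CDSs, the 47.2% and the 27.5% may not be on a par.

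After 10 min a larger share of the reads lay near the start. There codons 2 to 15 of the small proteins held 8.61% to 10.2% of the reads with 1.5 μM and 6.13% to 7.47% with vehicle, without overlap, and the last 15 codons held 24.3% to 29.03% and 31.3% to 34.5%. The start held more in longer CDSs too, at 3.66% to 4.29% against 2.41% to 3.06% in those over 100 and up to 200 codons and 1.21% to 1.43% against 0.794% to 1.04% in those over 200 codons, again without overlap. In vehicle mRNA-seq codons 2 to 15 of the small proteins held 19.01% to 20.2%. After 60 min the compound and vehicle groups overlapped at codons 2 to 15 of the small proteins, with means of 8.01% and 8.10%, as they did in the second study (9.97% and 10.2%). These shares of 1 total are not independent of each other.

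**Figure D3:**
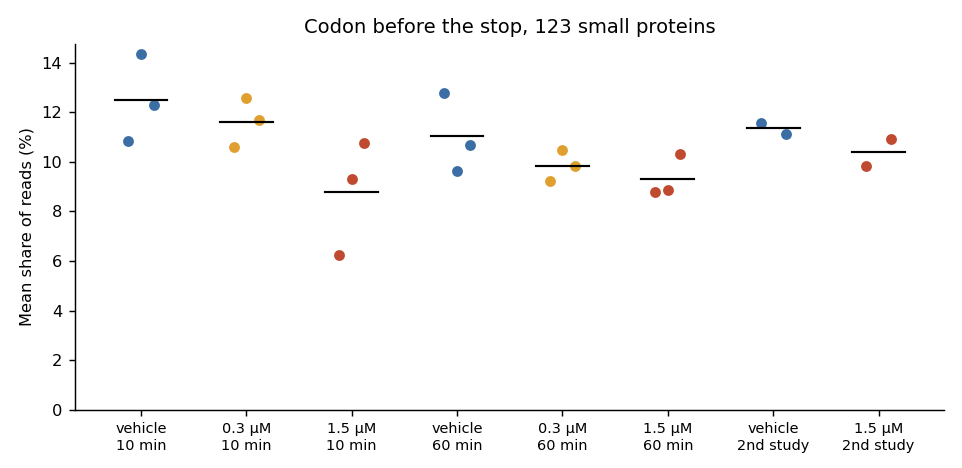
Mean share of reads (%) on the codon before the stop over 123 small proteins in each ribo-seq library (points) with the group mean (line), by dose and time in the first study and by treatment in the second. After 10 min the 3 libraries with 1.5 μM (6.25% to 10.8%) lie below the 3 with vehicle (10.8% to 14.3%), and after 60 min the groups overlap.

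Footprints per mRNA were compared within the vehicle samples of the second study, as the log2 ratio of footprints to mRNA centred on the typical transcript. Of the 610 very short CDSs with enough reads, 192 were higher and 192 lower (edgeR, with a false discovery rate, FDR, under 10%), which is 63.0% of them, against 74.6% of all 11734 transcripts tested, 36.7% higher and 37.9% lower. Their median was -0.02, against -0.03 for all transcripts. Without the last 15 codons of every CDS, 166 of 561 were higher and 192 lower, where 8704 of all 11648 transcripts were called. In these vehicle samples the last 15 codons of the 123 small proteins held a mean of 29.8% of the footprints and 18.7% of the mRNA reads. The ratios by kind and class below include these codons, and their part in them was not tested. The kinds of transcript differed in their medians, as small proteins had a median of 0.32, with 108 of 224 higher and 46 lower. Short forms of longer proteins had a median of -0.16 (48 higher and 59 lower of 180), incomplete CDSs -0.21 (22 and 38 of 116), transcripts without an annotated CDS -0.45 (2 and 7 of 19) and those not in the annotation -1.17 (12 and 42 of 71).

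By class, proteins of RNA processing and transcription had 14 of 17 members higher and 0 lower, with a median of 0.79. Chromatin proteins had 5 of 6 higher and 1 lower (median 0.90), actin, microtubule and dynein proteins 7 of 9 higher and 1 lower (0.71), metallothioneins 6 of 8 higher and 2 lower (0.68), the ubiquitin family 8 of 10 higher and 1 lower (0.56) and the ER and secretory class 11 of 21 higher and 3 lower (0.57). The cytosolic ribosomal proteins, the class with the highest level per codon, had 7 higher and 6 lower of 20 and a median of -0.03. Over all transcripts tested 36.7% were higher and 37.9% lower. The respiratory chain and ATP synthase class (11 higher and 5 lower of 24, median 0.29) and mitochondrial import (14 and 4 of 31, median 0.25) lay between.

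Among transcripts with at least 50 reads in each of these libraries, the highest ratio was in the unnamed ENST00000432293, at 2.41 ± 0.20 (log2, SE; FDR 5.33e-06). It had 44.7 and 43.0 counts scaled to 1000000 (CPM) in ribo-seq and 10.0 and 6.57 CPM in mRNA-seq. SMIM14, a small ER membrane protein, followed at 1.94 ± 0.14, with 40.4 and 43.0 CPM against 11.2 and 10.5. ENST00000394201 (1.94), POLR2K, a subunit shared by the nuclear RNA polymerases (1.80), and a form of PCLAF, which binds the sliding clamp PCNA (1.80), were the next.

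At the other end were a pair of unnamed 25-codon transcripts and a pair of mitochondrially encoded proteins. ENST00000600213 had 52.8 and 47.2 CPM of footprints against 1826 and 1654 CPM of mRNA, a log2 ratio of -5.12 ± 0.11, and ENST00000512524 had -4.94 ± 0.18. MT-ND4L, a subunit of complex I, had 20.5 and 25.4 CPM against 612 and 523 (-4.64 ± 0.14), and MT-ATP8, a subunit of the ATP synthase, had 43.1 and 53.5 CPM against 572 and 444 (-3.40 ± 0.15). The 90-codon form of RPLP1, an acidic protein of the ribosomal stalk, had 349 and 360 CPM against 2109 and 2389. In all of these the footprint libraries lay far below the mRNA libraries.

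**Figure D4:**
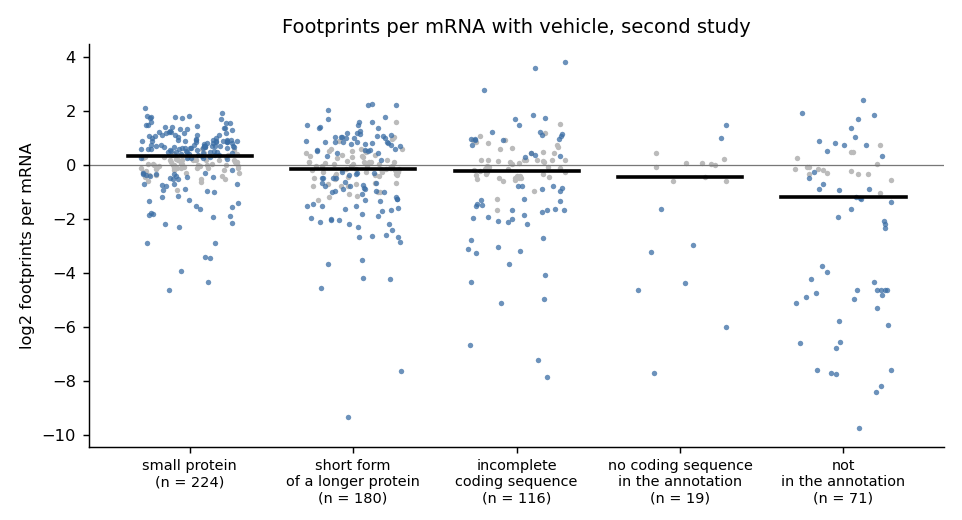
Log2 footprints per mRNA with vehicle in the second study for the 610 very short CDSs tested, by kind of transcript, with blue points for an FDR under 10% (edgeR), grey points for others and the median as a black line. Small proteins have a median of 0.32, and transcripts not in the annotation have a median of -1.17 with a long lower tail.

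Few very short CDSs were called in total footprints with 1.5 μM compound after 10 min. Of 491 very short CDSs tested, 10 were higher and 1 lower at an FDR of 10% (edgeR), which is 2.24%, against 0.851% of all 11045 transcripts, 0.462% higher and 0.389% lower. The median log2 change was 0.08, against 0.01 for all transcripts. At an unadjusted p under 0.05 there were 105 (21.4%, against 17.7% of all). With DESeq2 36 of 725 were called, 28 higher and 8 lower, against 4.31% of all. Without the last 15 codons of every CDS edgeR called 31 of 454, 28 higher and 3 lower, against 2.23% of all, and with codons 1 to 100 of every CDS alone 22 of 492, 10 higher and 12 lower, against 3.4% of all. The number of calls changed with single libraries. There were 0 without 1.5 μM replicate 1, 1 without 1.5 μM replicate 2 and 0 without vehicle replicate 1. Without vehicle replicate 2 there were 6, and 85 were called without vehicle replicate 3. The calls over all transcripts in these fits are not given here, so that these counts show only how far the number hung on single libraries.

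The most read of those that rose was RPS28, with 1039, 979 and 798 CPM with compound and 486, 506 and 680 CPM with vehicle. The 3 compound libraries lay above the 3 vehicle libraries (log2 change 0.75 ± 0.14, SE, edgeR FDR 0.046). Over the settings tried, each library left out among them, its log2 change stayed between 0.65 and 0.95. UQCR10, a subunit of respiratory complex III, had 141, 148 and 124 CPM against 77.3, 56.6 and 92.7, again without overlap (0.87 ± 0.15, FDR 0.0339; 0.70 to 1.04 over these settings). In their classes 2 of 20 cytosolic ribosomal proteins rose, and of 23 subunits of the respiratory chain and the ATP synthase 1 rose and 1 fell. Of all transcripts tested, 0.462% rose and 0.389% fell.

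The subunit that fell was COX6C of cytochrome c oxidase, with 112, 106 and 104 CPM with compound and 147, 185 and 138 CPM with vehicle (-0.54 ± 0.12, FDR 0.0863; -0.65 to -0.41 over these settings). DPM3, which anchors dolichol-phosphate mannose synthase in the ER membrane, was the 1 member of 21 in the ER and secretory class that rose, from 18.5, 19.6 and 19.9 CPM with vehicle to 35.95, 31.4 and 25.2 with compound (0.67 ± 0.14, FDR 0.0729). The other calls were forms of longer proteins, incomplete CDSs or transcripts without an annotated CDS. They included a form of TOLLIP, an adaptor in Toll-like receptor signalling (1.14 ± 0.21, FDR 0.0394), a form of TXNL4A, a spliceosome protein (0.98 ± 0.19, FDR 0.0526), ERP29 (0.60 ± 0.12, FDR 0.0651) and the pair ENST00000624491 and ENST00000624575 with identical counts (0.81 ± 0.17, FDR 0.0654). In the other classes no member passed the test.

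These changes were set beside length. Of CDSs of 50 codons or fewer 2 of 46 were called, of 51 to 75 codons 3 of 175, and of 76 to 100 codons 6 of 270 (2.22%). CDSs over 100 and up to 150 codons had 22 higher and 1 lower of 844 (2.73%) and those over 800 codons 1 higher and 9 lower of 1980 (0.505%). The share of calls of very short CDSs was thus close to that of the next longer ones.

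After 60 min 0 of 490 very short CDSs were called by edgeR, where 0.0726% of all 11021 transcripts were. At an unadjusted p under 0.05 there were 13 (2.65%, against 2.20% of all), of which BLCAP (0.57 ± 0.20) followed ATP5MK and MT-ATP8 among those with at least 50 reads. DESeq2 called 2, ATP5MK and MT-ATP8, against 0.141% of all. The same-numbered libraries deviated together, and with the replicate as a block edgeR called 3, where 0.463% of all transcripts were called. These were ATP5MK (log2 change 0.74 ± 0.11, FDR 0.00265), MT-ATP8 (-1.02 ± 0.16, FDR 0.00591) and TMSB10 (-0.45 ± 0.09, FDR 0.0382), whose change ran from -0.68 to -0.18 over the settings tried.

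ATP5MK, a small membrane subunit of the ATP synthase, had 218, 181 and 203 CPM with 1.5 μM compound and 102, 134 and 124.9 CPM with vehicle after 60 min, without overlap. Without the block its log2 change was 0.74 ± 0.14 with an FDR of 0.171. With 0.3 μM it had 175, 146 and 143 CPM, above each vehicle library (0.35 ± 0.13, FDR 1.00). In the second study ATP5MK had 150 and 162 CPM with compound and 129 and 133 CPM with vehicle (0.25 ± 0.07, FDR 0.999). Its mRNA there was not higher, with a log2 change of -0.18, and its change in footprints per mRNA was 0.43 ± 0.13 (FDR 1.00). The tests of 1.5 and 0.3 μM share the vehicle libraries, and both tests in the second study share the footprint libraries.

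Most of the added footprints of ATP5MK lay in the middle of its CDS. Codons 31 to 45, a window chosen after the profile was seen and so given with no test, had 119, 129 and 133 RPM with 1.5 μM, 86.1, 81.1 and 85.2 RPM with 0.3 μM and 51.3, 67.6 and 66.0 RPM with vehicle after 60 min. The 3 groups were in the order of dose and none overlapped another. After 10 min the window had 88.9, 95.2 and 127 RPM with 1.5 μM, 54.5, 104 and 84.8 with 0.3 μM and 67.8, 48.1 and 64.9 with vehicle. The second study had 48.2 and 51.1 RPM with compound and 34.5 and 37.0 with vehicle, while in mRNA-seq it had 25.5 and 23.8 RPM with compound and 33.7 and 32.9 with vehicle. Codons 1 to 30 had 42.3, 26.9 and 30.2 RPM with 1.5 μM and 37.1, 35.6 and 30.2 with vehicle after 60 min, with overlap. Codons 46 to 59 had 65.6, 20.7 and 37.4 RPM with 1.5 μM and 16.99, 27.5 and 28.0 with vehicle, where compound replicate 1 was the highest and the groups overlapped. In the second study these flanks were higher with compound too, without overlap. Codons 1 to 30 had 48.5 to 50.8 RPM against 43.7 to 47.9 with vehicle, and codons 46 to 59 had 51.6 to 62.3 against 47.0 to 50.8.

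The bases of codons 31 to 40 of ATP5MK, with codon 35 in capitals, lie at chr10:103392251-103392280 on the minus strand, in exon 3 of 4. After 60 min in the first study codon 35 had the highest group mean of its codons with 1.5 μM (28.2 RPM) and with vehicle (15.5 RPM). Codon 34 had means of 25.02 RPM with 1.5 μM and 8.01 RPM with vehicle. The rise with compound was thus larger at codon 34 than at the codon in capitals.
ATP5MK codons 31 to 40: gtactggccacaTATggaagcattgcattg

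**Figure D5:**
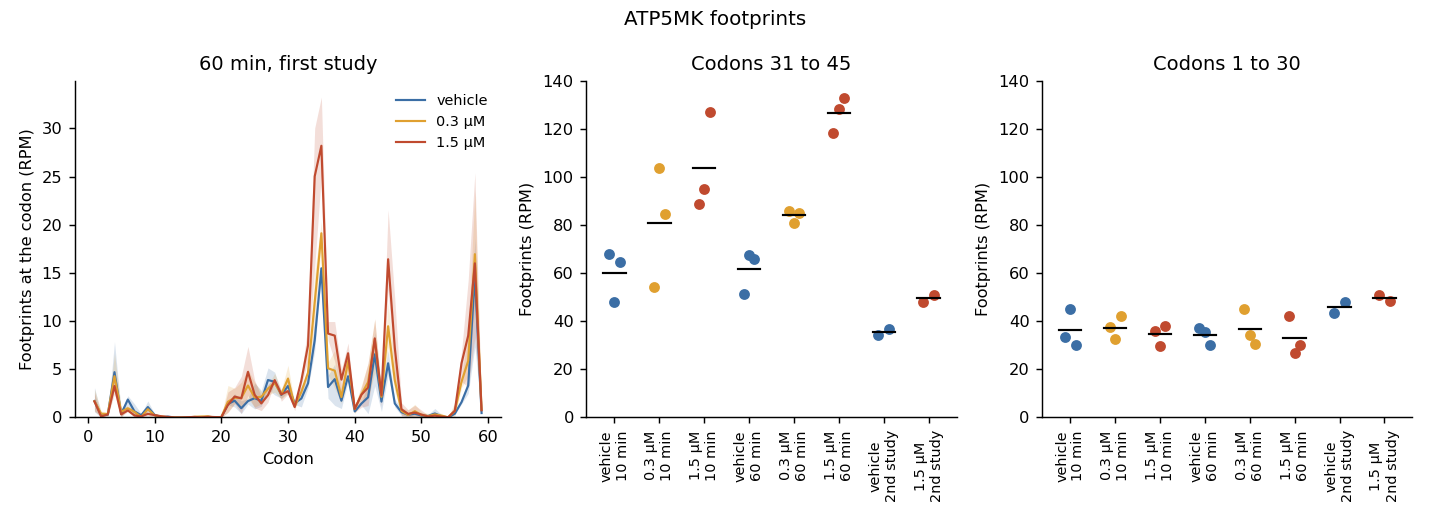
Footprints on ATP5MK, in RPM. The left panel shows each codon after 60 min in the first study, as group means with bands from the lowest to the highest of 3 libraries; the others show codons 31 to 45 and codons 1 to 30 in each ribo-seq library (points) with group means (lines). Codons 31 to 45 reach 119 to 133 RPM with 1.5 μM after 60 min in the first study and 51.3 to 67.6 with vehicle. Codons 1 to 30 overlap between groups in the first study but not in the second (48.5 to 50.8 RPM with compound, 43.7 to 47.9 with vehicle).

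MT-ATP8 had 22.7, 14.6 and 16.4 CPM with compound and 45.3, 45.2 and 22.3 CPM with vehicle after 60 min, where compound replicate 1 lay above vehicle replicate 3. In the vehicle libraries 55.8% to 81.3% of its footprints lay on its last 15 codons. The end of its reading frame overlaps the start of that of MT-ATP6 in the mitochondrial genome, and reads there cannot be told apart. On all but the last 15 codons it had 6.88, 6.01 and 6.67 RPM with compound and 15.9, 8.25 and 9.82 RPM with vehicle after 60 min, without overlap. Its log2 change in the second study was -0.13, and -0.73 with 1.5 μM replicate 5 left out. The groups overlapped there, with 20.6 to 40.8 RPM on the last 15 codons with compound and 30.4 to 36.3 with vehicle. On the other codons 1.5 μM replicate 5 lay above both vehicle libraries and 1.5 μM replicate 4 below both. The second study thus did not show the fall in both compound libraries. In the first study after 60 min, TMSB10 at the codon before its stop had 26.4, 5.58 and 12.3 RPM with compound. With vehicle it had 72.3, 14.8 and 17.6 RPM, so that it was lower with compound in each same-numbered pair.

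With 0.3 μM compound 0 of 504 were called by edgeR after 10 min and 0 of 510 after 60 min, where 0.0% of all transcripts were called at either time. At an unadjusted p under 0.05 there were 15 (2.98%, against 0.934% of all) and 9 (1.76%, against 0.871% of all), and DESeq2 called 0 and 0. After 10 min the lowest p among transcripts of at least 50 reads were in a form of ADH5 (0.32 ± 0.12), PET100 (-0.54 ± 0.22) and ZNF706 (-0.36 ± 0.15), and after 60 min in ATP5MK, GNG10 (0.42 ± 0.17) and IER3IP1 (0.33 ± 0.14). PET100, an assembly factor of cytochrome c oxidase, had 26.3, 14.8 and 18.6 CPM with compound and 24.3, 36.2 and 25.5 with vehicle, with overlap.

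The difference between the responses to 1.5 μM after 10 and 60 min was tested as an interaction. Of 508 very short CDSs 0 were called (edgeR, DESeq2 0), and 0.0% of all 11167 transcripts were. At an unadjusted p under 0.05 there were 47 (9.25%, against 4.53% of all). RPS28, TXNL4A and a 28-codon form of GABARAP had the lowest p, with differences of 0.83 ± 0.25, 0.96 ± 0.30 and 0.70 ± 0.22 on the log2 scale, each higher after 10 min (FDR 0.856 for all). That of GABARAP was -0.036 without the last 15 codons. RPS28 itself had a log2 change of 0.75 after 10 min and -0.07 after 60 min, comparisons that share no library. In this fit its mean was 543 CPM with vehicle after 10 min and 795 after 60 min, and 916 and 758 CPM with compound. For TXNL4A these means were 15.4 and 27.1 CPM with vehicle and 30.6 and 28.0 CPM with compound. In both, the means of the 2 times lay further apart with vehicle than with compound.

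Of 519 very short CDSs in the second study, 0 were called in footprints (edgeR, DESeq2 0, against 0.115% called of all transcripts). In mRNA 0 of 625 were called (DESeq2 0, against 0.0% of all), and in the change of footprints per mRNA 0 of 620 (DESeq2 0, against 0.0339% of all). At an unadjusted p under 0.05 there were 13 in footprints (2.50%, against 2.97% of all), 22 in mRNA (3.52%, against 1.93%) and 20 in footprints per mRNA (3.23%, against 3.03%). Beside ATP5MK, the lowest p were in a form of TXN2, mitochondrial thioredoxin, which had 29.9 and 29.97 CPM with compound and 35.4 and 36.1 with vehicle, and in PET100, which had 26.4 and 34.9 against 39.4 and 37.4. In mRNA the lowest p were in the unnamed ENST00000399974 and ENST00000604646, of 29 and 25 codons. The former had 9.19 and 7.92 CPM with compound and 3.90 and 0.995 CPM with vehicle (1.84 ± 0.47), and the latter 11.9 and 7.07 against 4.35 and 1.402 (1.76 ± 0.45). SF3B5, a spliceosome subunit, came next with 89.5 and 96.3 CPM with compound and 115 and 111 CPM with vehicle (-0.29 ± 0.10, FDR 0.999 for all 3). In footprints per mRNA, CKLF-CMTM1 (0.60 ± 0.20) and C19orf53 (-0.46 ± 0.17) followed ATP5MK. In TXN2, PET100 and the 3 named in mRNA the groups did not overlap.

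Reads 3′ to the largest shift in a profile were compared in a way adapted from the study, with edgeR in place of DESeq. The Z-score differed too, as that of the study counts standard deviations from the mean. For each transcript the codon was found where the cumulative share of reads with compound exceeded that with vehicle the most (Dmax). This excess was divided by its root mean square among 300 transcripts of like read number, without subtracting the mean, and is called the Z-score here. At a Z-score of at least 2 the reads 3′ to that codon were tested, and in all other transcripts the reads 3′ to codon 50. After 10 min 34 of 336 very short CDSs (10.1%) had a Z-score of at least 2 and fewer 3′ reads at an FDR of 10% (edgeR), against 1.62% of all 10756 transcripts. Of the 336, 80 had a Z-score of at least 2. CDSs of at most 50 codons with a lower Z-score had no read 3′ to codon 50 and could not be tested. The share of very short CDSs is thus over a set that the Z-score helped to choose, and the 2 shares are not on a par. With compound and vehicle exchanged, an alternative chosen after the data were seen, 7 of 329 (2.13%) were called, against 0.745% of all. Of the 34, 25 were small proteins, and their median log2 change in 3′ reads was -1.11. The reads 3′ to Dmax include the codon before the stop, and so these calls share reads with the end profiles above.

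The number of these calls changed with single libraries. The calls over all transcripts in the fits with a library left out are not given here. Without 1.5 μM replicate 1 there was 1 call, without 1.5 μM replicate 2 there were 2, without vehicle replicate 2 there were 8, and without vehicle replicate 3 there were 52. Vehicle replicate 2 had the highest share of reads before the stop of all ribo-seq libraries, 14.3%, and 1.5 μM replicate 1 the lowest, 6.25%. The part of these libraries' end peaks in the calls was not tested.

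The 8 with the largest change and at least 50 such reads were TMA7 (-1.79 ± 0.40), TMSB10 (-1.72 ± 0.41), NDUFC1, ENST00000394201, a 30-codon form of APOC1 (-1.47 ± 0.23, FDR 0.00784), the chemokine CXCL8, GNG5 and UBL5 (-1.27 ± 0.22, FDR 0.0136). In TMA7 32.1%, 28.98% and 39.9% of the footprints lay 3′ to Dmax at codon 27 with compound, and 55.2%, 79.6% and 59.7% with vehicle. In APOC1, an apolipoprotein, 23.5%, 23.7% and 30.5% lay 3′ to codon 19 with compound and 55.2%, 68.5% and 41.2% with vehicle. In UBL5, a ubiquitin-like protein, 12.8%, 13.8% and 13.2% lay 3′ to codon 58 with compound and 26.4%, 37.8% and 28.2% with vehicle. In all 8 the 3 compound libraries lay below the 3 vehicle libraries, which the choice of Dmax on the same reads favours.

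After 60 min 0 of 327 were called in this way, against 0.215% of all transcripts, and with the replicate as a block 1, C18orf32, against 0.411% of all. The second study had 0 of 362, against 0.309%. The lowest p after 60 min were in SEC61G (-0.57 ± 0.20), GABARAP (-0.55 ± 0.25) and BRK1 (-0.53 ± 0.27), at an FDR of 1.00 each (edgeR). Those of the second study were in MANBAL (-0.60 ± 0.17, FDR 0.605), SPTSSA (-0.65 ± 0.21) and TMEM167B (-0.81 ± 0.27). ATP5MK was not among the calls of any of these 3 comparisons.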

How the data were processed

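Deposited files gave, for each library, whole-number counts of reads per codon of 12325 transcripts. Per the labels and the submitters' processing notes the authors aligned footprints and mRNA reads with Bowtie 1.1.2 to 1 isoform per gene (GRCh38) and kept reads with up to 5 equally good sites, all of which were reported, so that near-identical CDSs are uncertain. Counts were summed per CDS here. RPM is per 1000000 CDS reads of a library, CPM is scaled by TMM. Transcripts were named from GENCODE version 44, where 709 of 808 were found.

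Each comparison was fitted to all transcripts with edgeR 4.0.16 (quasi-likelihood test, filterByExpr, Benjamini-Hochberg adjustment, FDR 10%) in R 4.3.3, and members were read off that fit. Footprints per mRNA were tested in 1 model over both assays. Alternatives were DESeq2 1.42.0, its size factors, no filter, FDR 5%, a block for the replicate number, CDSs without the last 15 codons, codons 1 to 100 only, a shorter and a longer length cut, members with annotated start and stop, and leaving out each library. On simulated data with 200 of 11045 transcripts changed by 1 log2 unit, the test recovered 177 in the comparison of 1.5 μM with vehicle after 10 min. For the difference between times and for the change in footprints per mRNA it recovered 131 of 200 each.

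Whether same-numbered libraries pair was checked by the correlation of their deviations from the group means. A pairing was taken to hold where the lowest correlation was at least 0.1. It held for 1.5 μM and vehicle after 60 min (0.384 to 0.514) and for 0.3 μM and vehicle at both times (0.145 to 0.514 and 0.429 to 0.539). For 1.5 μM after 10 min (0.0678 to 0.225) it fell short of this cut. There too each compound library correlated most with the vehicle library of its own number, so that a pairing is not excluded.

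Members and class lists were chosen with earlier results of these data known. Transcripts named were, per comparison, all called or the 8 with the largest change among those with at least 50 reads and 1 direction in every pair, or else the 3 with the lowest p; the 3 most read per class; the 5 highest and lowest footprints per mRNA; the 5 shortest; and the 3 most read of 100 codons and of 1 codon more.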

Additional observations from a re-analysis of the deposited data

How the results depend on the processing

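Under the settings tried (a stricter FDR, DESeq2 or only its size factors, no filter, the replicate block, other parts of the CDS, other length cuts and each library left out), the counts in the main comparisons gave 154 values within 1.5 times the reported count and 41 outside it. For 1.5 μM after 10 min (11 called), DESeq2 called 36, no filter 19, an FDR of 5% 3, CDSs without the last 15 codons 31, codons 1 to 100 alone 22, the shorter length cut 5 and the longer one 20, and leaving out each library gave 0 to 85. The replicate block gave 86 of 491 (58 higher and 28 lower), against 1196 of all 11045 transcripts, where the same-numbered libraries fell short of the cut for pairing. For the fits with a library left out, here and below, the calls over all transcripts are not given. Without the last 15 codons the split was 28 higher and 3 lower, and with codons 1 to 100 alone 10 higher and 12 lower.

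For 1.5 μM after 60 min (0 called), DESeq2 called 2, the replicate block 3, and leaving out each library gave 0 to 1, the 1 being MT-ATP8 without vehicle replicate 3. In the second study, where 2 pairs cannot show a pairing, the replicate block called 6 of 519 in footprints, against 129 of all 11263 transcripts. Among the 6 were ATP5MK (FDR 0.00146, edgeR) and the pair of 25-codon transcripts. Leaving out each library gave 0 to 7 in footprints (7 without 1.5 μM replicate 5), 0 to 1 in mRNA and 0 to 8 in the change of footprints per mRNA (8 without vehicle mRNA replicate 4). Vehicle footprints per mRNA (384 called) gave 187 at the shorter length cut, 667 at the longer one, 321 to 453 with a library left out and 395 with the replicate block. With 1 library left in a group there, it was assumed to vary like the others. Members with an annotated start and stop gave 156 higher and 105 lower, and CDSs without the last 15 codons 166 higher and 192 lower.

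For reads 3′ to Dmax after 10 min (34 called), an FDR of 5% gave 13, a Z-score of at least 3 gave 10, exchanged groups 7 and leaving out each library 1 to 52. After 60 min the replicate block gave 1, exchanged groups 1 and leaving out each library 0 to 2. In the second study the replicate block gave 1 and leaving out each library 0 to 3. The share of CDS reads with vehicle (4.01%) was 2.36% without the last 15 codons, 2.26% and 8.06% at the shorter and longer cuts, 3.10% without the pair of 25-codon transcripts and 3.84% to 4.09% with a library left out. Of the values of single transcripts, 461 kept their direction and their side of the threshold, 10 passed it newly and 39 no longer did. One reversed: the difference between times of GABARAP was -0.036 without the last 15 codons. The cause of these changes was not tested. The replicate block changed no other count of calls by over 1.5 times.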
